A study of Mus musculus with 238 samples.

Results

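Slc17a7, Slc17a6 and Slc17a8 encode the vesicular glutamate transporters VGLUT1, VGLUT2 and VGLUT3, and their rows were read from the count table by gene symbol. All 3 genes had a row, out of 21076 genes in the table. Bulk RNA of 15 brain regions was sequenced from C57BL/6JN mice of 19 months in 229 libraries. The diet experiment held females, with 4 mice fed freely (AL, ad libitum, 58 brain libraries) and 5 dietary restricted (aDR, 73 libraries), and 9 liver libraries of the same mice, in which the restricted mice are labelled DR. The plasma experiment held males, with 4 mice injected with PBS (54 libraries) and 3 injected with plasma of young mice (YMP, 44 libraries), both by the retro-orbital route. All females were in the diet experiment and all males in the plasma experiment, so sex and experiment cannot be told apart, and the experiments are described side by side. The AL and PBS mice are called the control mice below.

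These proteins sit in the membrane of synaptic vesicles and use the electrochemical gradient of the vesicular proton pump to load glutamate before release. A neuron that expresses one of them can release glutamate, so the genes serve as markers of glutamatergic neurons. In the textbook map, VGLUT1 is the transporter of cortical, hippocampal and cerebellar granule neurons, VGLUT2 that of thalamic, hypothalamic and brainstem neurons, and VGLUT3 is found in serotonergic neurons, striatal cholinergic interneurons and some cortical interneurons, most of which also use another transmitter. Whether the diet or the plasma changed these genes, and where in the brain they are expressed in old mice, are the comparisons the design allows.

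In the GENCODE M21 annotation of GRCm38, Slc17a7 (ENSMUSG00000070570.5) spans chr7:45163949-45176142 on the plus strand and Slc17a6 (ENSMUSG00000030500.6) spans chr7:51622006-51671119 on the same strand of the same chromosome. Slc17a8 (ENSMUSG00000019935.16) spans chr10:89574020-89621253 on the minus strand. The longest coding transcript has 12 exons in each gene and is 2915 bases long for Slc17a7, 4137 for Slc17a6 and 4456 for Slc17a8. The libraries carry no strand information, and 0 of the 3 genes overlaps an annotated gene on the opposite strand. All values in the text are counts over whole genes, so isoforms are not told apart.

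The 250 bases before the first listed start of each gene are shown because the 3 family members had different maps over the brain, described next, and these windows are the sequence nearest to where each is transcribed from. They come from RefSeq (GRCm38.p6) and run 5′ to 3′ on the gene's own strand. The capitals mark GGGCGG or its complement CCGCCC, the core of the GC box, on either strand. The windows are chr7:45163671-45163920 (plus), chr7:51621580-51621829 (plus) and chr10:89621250-89621499 (minus).
Slc17a7: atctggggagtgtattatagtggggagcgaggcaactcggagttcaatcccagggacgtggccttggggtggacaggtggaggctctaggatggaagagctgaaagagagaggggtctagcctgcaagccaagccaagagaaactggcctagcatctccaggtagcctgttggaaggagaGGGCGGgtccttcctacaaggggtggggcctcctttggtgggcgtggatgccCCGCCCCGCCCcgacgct
Slc17a6: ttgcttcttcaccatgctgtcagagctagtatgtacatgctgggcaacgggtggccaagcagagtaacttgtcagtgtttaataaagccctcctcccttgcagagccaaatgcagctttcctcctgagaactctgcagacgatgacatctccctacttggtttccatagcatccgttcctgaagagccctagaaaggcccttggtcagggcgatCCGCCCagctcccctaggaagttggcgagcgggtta
Slc17a8: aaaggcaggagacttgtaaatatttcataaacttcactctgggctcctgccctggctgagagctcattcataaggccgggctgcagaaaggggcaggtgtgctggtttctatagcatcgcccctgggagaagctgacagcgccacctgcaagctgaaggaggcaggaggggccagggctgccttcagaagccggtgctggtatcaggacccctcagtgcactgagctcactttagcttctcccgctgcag
The window of Slc17a7 held 3 matches, 2 of them overlapping, that of Slc17a6 held 1 and that of Slc17a8 held 0. A match was present in 32.7% of 32851 windows of this length over all RefSeq starts. GC content was 61.2% for Slc17a7, 53.2% for Slc17a6 and 57.2% for Slc17a8, against a median of 52.4% over all windows, and the CpG counts were 9, 7 and 5 against a median of 6. The E-box CAGCTG was in 0 of the 3 windows and in 13.0% of all. These matches describe the letters of the windows, and no measurement here bears on what binds them. Slc17a6 and Slc17a8 each have 2 listed starts, of which the one farthest upstream was used.

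Library totals of the brain libraries ran from 0.606 to 32.4 M counts, with a median of 8.47 M, and 6 were under 2 M. For 11 brain libraries, the profile over the 1000 most variable genes was nearest to the mean of a region other than the labelled one. They were caudate putamen of PBS mouse 76, choroid plexus of YMP mouse 73, corpus callosum of aDR mouse 67 and YMP mouse 77, entorhinal and motor cortex of PBS mouse 72, posterior hippocampus of AL mouse 68 and YMP mouse 77, and SVZ of aDR mouse 64, PBS mouse 72 and YMP mouse 77. These libraries were kept, and counts are given with and without them. The labelled regions were checked against marker lists of neurons and other cells, with no list specific to olfactory bulb. By the median library, the thalamic list was highest in thalamus, the granule neuron list in cerebellum, the striatal list in caudate putamen, and the choroid plexus epithelium list in choroid plexus. The summed oligodendrocyte list was highest in pons rather than corpus callosum, and the summed cortical and hippocampal list was highest in anterior hippocampus. Libraries of choroid plexus and corpus callosum also had high counts of genes from lists of other places. The choroid plexus libraries had between 153 and 15321 CPM (counts per M counts of the library) summed over the 8 epithelium genes, together with 1874 to 4620 CPM over the 10 genes of cortical and hippocampal glutamatergic neurons, and the corpus callosum libraries had 2485 to 6528 CPM over the 7 striatal genes. The epithelium genes reached 18761 CPM in a corpus callosum library and 19809 CPM in an SVZ library, above the highest choroid plexus library.

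Slc17a7 was highest in the cortical and hippocampal regions and nearly absent from hypothalamus and caudate putamen. In motor cortex of the AL mice it measured 585, 629, 535 and 594 CPM, a mean of 586 ± 39.0 (SD, n = 4), the highest regional mean. The visual cortex values were 464, 476, 473 and 508 CPM, and those of posterior hippocampus 451, 430, 604 and 512. These regions lay within a narrow band, with entorhinal cortex at 485 ± 102 CPM (n = 3), choroid plexus at 465 ± 144 (n = 4), olfactory bulb at 411 ± 25.9 (n = 4) and anterior hippocampus at 400 ± 45.0 (n = 4). Cerebellum, whose granule neurons are the most numerous neurons of the brain, came below that band, with 185, 181, 160 and 231 CPM. Corpus callosum had 267, 190 and 79.8 CPM in the 3 mice measured, and thalamus 84.2, 116, 31.2 and 80.9. Hypothalamus had 3.48, 0.229, 0 and 2.62 CPM and caudate putamen 2.71, 0.468, 2.98 and 0.728, so all 8 libraries of these regions lay below every AL library of every other brain region except the pons of mouse 68.

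Slc17a6 had its peak in thalamus, with 749, 752, 812 and 848 CPM in the AL mice (mean 790 ± 48.4 SD, n = 4). The medulla values were 297, 267, 287 and 325 CPM and those of hypothalamus 333, 332, 246 and 248, and the 2 regions overlapped. The pons measured 228, 238, 152 and 220 CPM. The cortical regions were much lower, from 58.3 ± 9.60 CPM in visual cortex (n = 4) to 29.5 ± 3.84 in entorhinal cortex (n = 3) and 22.6 ± 4.28 in motor cortex (n = 4). Caudate putamen had 0, 0.937, 0.217 and 0.486 CPM, the lowest regional mean, and corpus callosum 6.39, 2.01 and 1.05.

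Slc17a8 was a low-level gene everywhere, with its highest values in pons and caudate putamen. The pons of the AL mice had 39.6, 28.0, 34.7 and 10.5 CPM, a mean of 28.2 ± 12.7 (SD, n = 4), in which mouse 69 was low. Caudate putamen had 13.0, 12.5, 16.9 and 12.4 CPM, a tighter group. Corpus callosum followed with 7.22, 6.03 and 10.9 CPM, then thalamus with 4.53, 2.60, 7.65 and 9.34. In medulla, hypothalamus, SVZ, choroid plexus, motor and visual cortex and both parts of the hippocampus the AL means lay between 1.67 and 2.86 CPM. Entorhinal cortex, cerebellum and olfactory bulb had means of 0.488, 0.257 and 0.187 CPM, and in cerebellum the gene was at 0 in 3 of the 4 AL libraries and in all 3 PBS libraries.

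**Figure D1:**
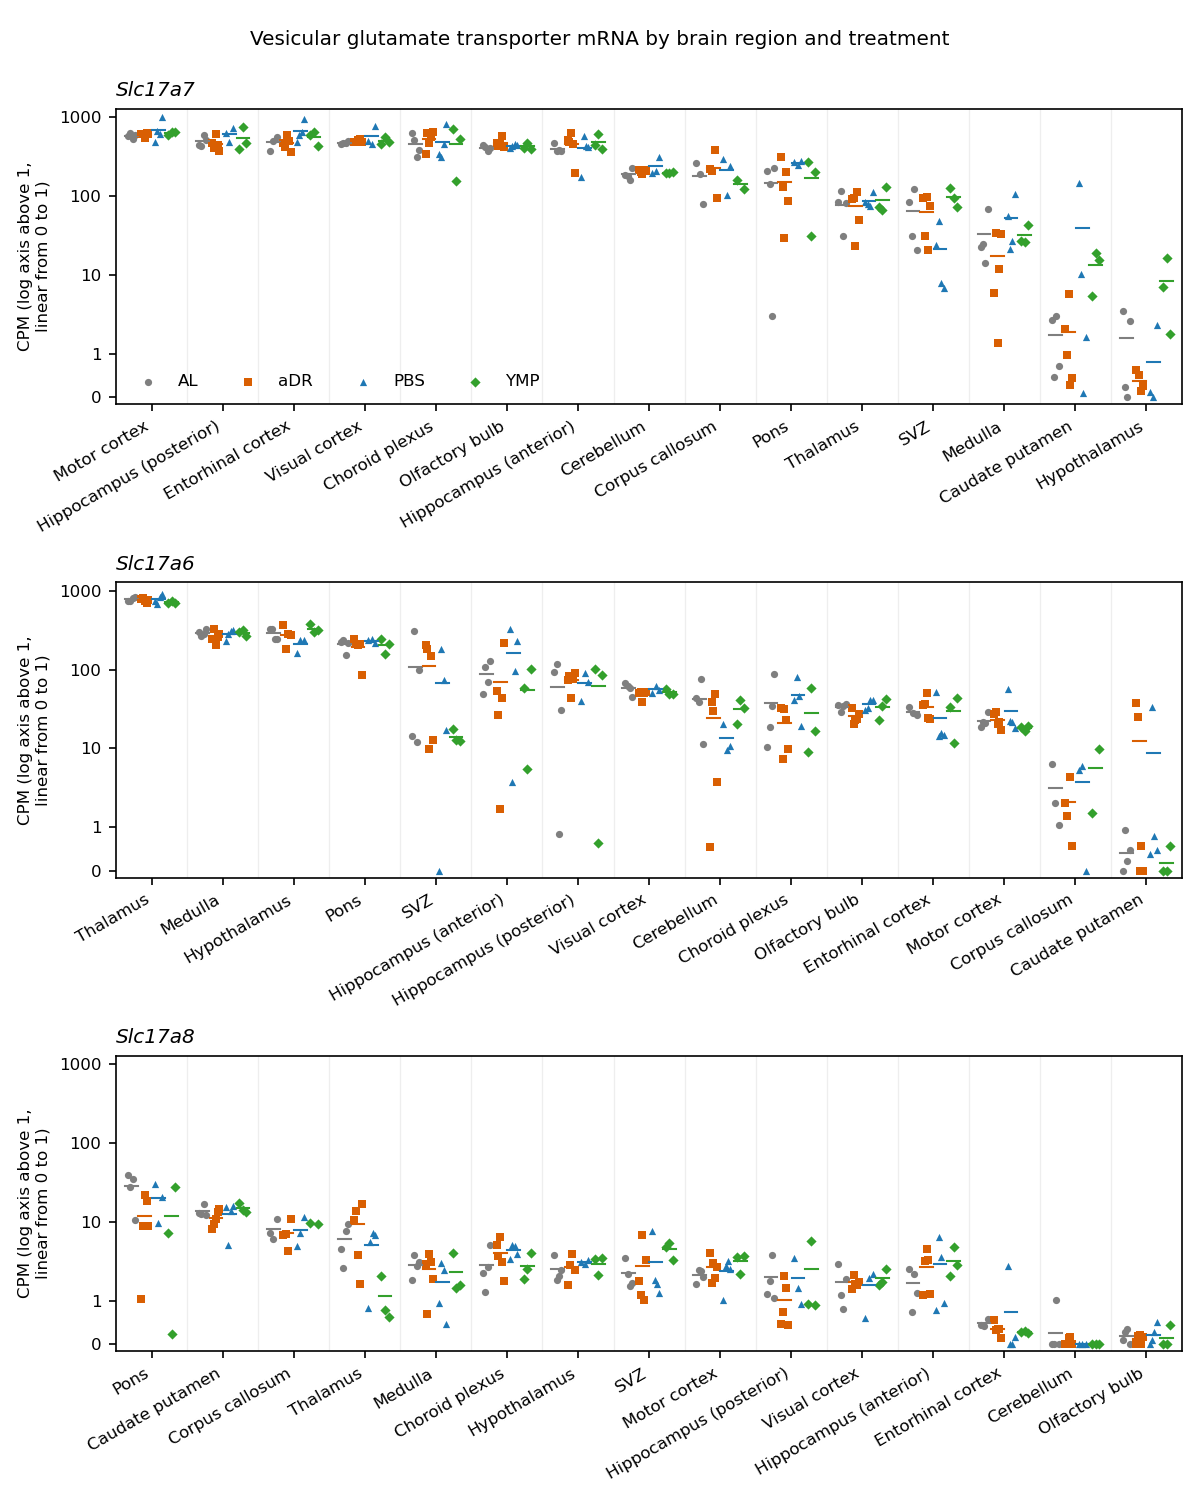
CPM of Slc17a7, Slc17a6 and Slc17a8 (log axis above 1, linear from 0 to 1) in each brain library by region in the order of the AL means, with 1 point per mouse, colours and symbols for AL, aDR, PBS and YMP, and short lines for the group means. The AL mean of Slc17a7 is 586 CPM in motor cortex and 1.58 in hypothalamus, that of Slc17a6 peaks at 790 in thalamus, and those of Slc17a8 are highest in pons (28.2) and caudate putamen (13.7).

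The order of the regions was similar in the PBS mice. Over the 15 regional means, Spearman's correlation between the AL and PBS mice was 0.975 for Slc17a7, 0.95 for Slc17a6 and 0.896 for Slc17a8, given as a description because regions share mice. One place where the order of the means turned was Slc17a7 in SVZ and caudate putamen. The SVZ mean was above that of caudate putamen in the AL mice (64.9 against 1.72 CPM, log2 difference 5.08, edgeR adjusted p = 5.75e-08). In the PBS mice the SVZ mean was below it (21.6 against 39.9 CPM, -0.87, edgeR adjusted p = 0.345). That PBS mean of caudate putamen was set by mouse 72 at 147 CPM, with 0.101 to 10.3 in the others. By the PBS medians SVZ stayed above caudate putamen, at 15.8 against 5.99 CPM. The PBS means were 693 ± 221 CPM for Slc17a7 in motor cortex (n = 4), 796 ± 102 for Slc17a6 in thalamus (n = 4) and 20.1 ± 10.2 for Slc17a8 in pons (n = 3). The wide SD of the first came from PBS mouse 84, whose 1002 CPM compared with 482, 667 and 620 in the other three.

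Regions were compared in pairs within the control mice (edgeR's quasi-likelihood test, adjusted by the Benjamini-Hochberg method over all genes and pairs, called at an adjusted p under 0.05). Of the 105 pairs, 72 were called for Slc17a7, 68 for Slc17a6 and 72 for Slc17a8 in the AL mice, and 52, 51 and 51 in the PBS mice. Over all genes and pairs 47.9% of tests were called in the AL mice and 41.8% in the PBS mice, so most genes differed between many regions. Without the 11 libraries nearest to another region the counts were 70, 74 and 71 in the AL mice and 53, 75 and 65 in the PBS mice. The PBS count of Slc17a6 rested on single mice, falling to 20 pairs without mouse 80 and to 26 without mouse 84.

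Motor cortex and thalamus, the regions with the highest AL means of Slc17a7 and Slc17a6, were compared for each gene. Slc17a7 was higher in motor cortex by 2.93 on the log2 scale (SE 0.535, edgeR adjusted p = 1.03e-05) in the AL mice and by 3.02 (adjusted p = 0.00056) in the PBS mice. Slc17a6 was lower in motor cortex, with log2 differences of -5.08 (SE 0.699, edgeR adjusted p = 3.57e-08) and -4.69 (adjusted p = 4.57e-05). Slc17a8 was also lower in motor cortex in the AL mice (-1.47, edgeR adjusted p = 0.00441), and that call was lost without AL mouse 69 (-1.13, adjusted p = 0.0595). In the PBS mice the Slc17a8 difference of -1.05 was not called (edgeR adjusted p = 0.229). In this pair 47.1% of all genes were called in the AL mice and 41.9% in the PBS mice.

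Few neighbours in the order of the means were called, and neighbours in such an order are close by construction. The test estimates the spread of a gene over all brain regions, so it does not measure the spread of the pair alone. For Slc17a7, 2 of the 14 neighbouring pairs in the AL mice were called, anterior hippocampus over cerebellum (log2 1.18, edgeR adjusted p = 0.0491) and medulla over caudate putamen (4.14, adjusted p = 4.59e-06). For Slc17a6 the called neighbours were thalamus over medulla (1.42, edgeR adjusted p = 0.0402) and motor cortex over corpus callosum (3.40, adjusted p = 0.00718). For Slc17a8 they were pons over caudate putamen (0.96, edgeR adjusted p = 0.0234), thalamus over medulla (1.03, adjusted p = 0.0378) and anterior hippocampus over entorhinal cortex (1.72, adjusted p = 0.0477). The other neighbours did not pass the test, among them motor cortex and posterior hippocampus for Slc17a7, medulla and hypothalamus for Slc17a6, and caudate putamen and corpus callosum for Slc17a8. In the PBS mice SVZ over hypothalamus for Slc17a7 was the single neighbouring pair called (5.58, edgeR adjusted p = 0.00049).

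Among the region pairs of the cortex, Slc17a7 was not called between motor and visual cortex in the AL mice (log2 0.30, SE 0.493, edgeR adjusted p = 0.648). Its AL values there did not overlap, at 535 to 629 CPM in motor and 464 to 508 in visual cortex. Motor and entorhinal cortex were not called for Slc17a7 either (0.33, SE 0.536, edgeR adjusted p = 0.647). Slc17a6 was lower in motor than in visual cortex in each AL library, at 18.6 to 28.7 against 45.3 to 68.1 CPM. Its difference of -1.32 was not called (SE 0.653, edgeR adjusted p = 0.0918). The share of all genes whose AL values separate motor from visual cortex was not taken, so neither separation sets its gene apart. Anterior and posterior hippocampus did not pass the test for any of the 3 genes in either set of control mice. In the brainstem, pons and medulla had Slc17a6 levels that were not told apart (0.51 for medulla minus pons, edgeR adjusted p = 0.5). The pons had more Slc17a7 (-2.13 for medulla minus pons, edgeR adjusted p = 0.000842) and more Slc17a8 (-3.24, adjusted p = 4.71e-09). Both differences were called in the PBS mice too (-2.30, adjusted p = 0.0097, and -3.76, adjusted p = 5.77e-05). For Slc17a7 the pons of AL mouse 68, at 3.02 CPM, lay below every AL medulla library (14.3 to 69.5 CPM).

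To compare the genes with each other, CPM was divided by the length of the longest coding transcript in kb. On this scale Slc17a7 was the highest of the 3 genes in 156 of the 229 brain libraries, Slc17a6 in 63 and Slc17a8 in 10. Slc17a7 led in all libraries of the cortical regions, posterior hippocampus, olfactory bulb, cerebellum, corpus callosum and choroid plexus, and in 15 of 16 of anterior hippocampus. Slc17a6 led in all 16 of thalamus, all 16 of medulla and all 14 of hypothalamus. All 10 libraries led by Slc17a8 were of caudate putamen, where Slc17a7 and Slc17a6 led in 3 each. With the union of all exons as the length, the counts were 152, 67 and 10.

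As a share of the 3 genes' summed CPM per kb in the AL mice, Slc17a7 made up 97.1% ± 0.488 (SD, n = 4) in motor cortex and Slc17a6 98.4% ± 1.01 (n = 4) in hypothalamus and 87.2% ± 5.11 (n = 4) in thalamus. In caudate putamen Slc17a8 made up 82.5% ± 6.53 (n = 4) of a small sum, 3.76 ± 0.805 CPM per kb against 207 ± 13.6 in motor cortex. The pons was the most mixed region, with 39.3% ± 25.5 Slc17a7, 52.9% ± 19.2 Slc17a6 and 7.75% ± 6.58 Slc17a8 (n = 4), followed by the SVZ, where the share of Slc17a7 ran from 12.5% to 92.8% between AL mice.

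**Figure D2:**
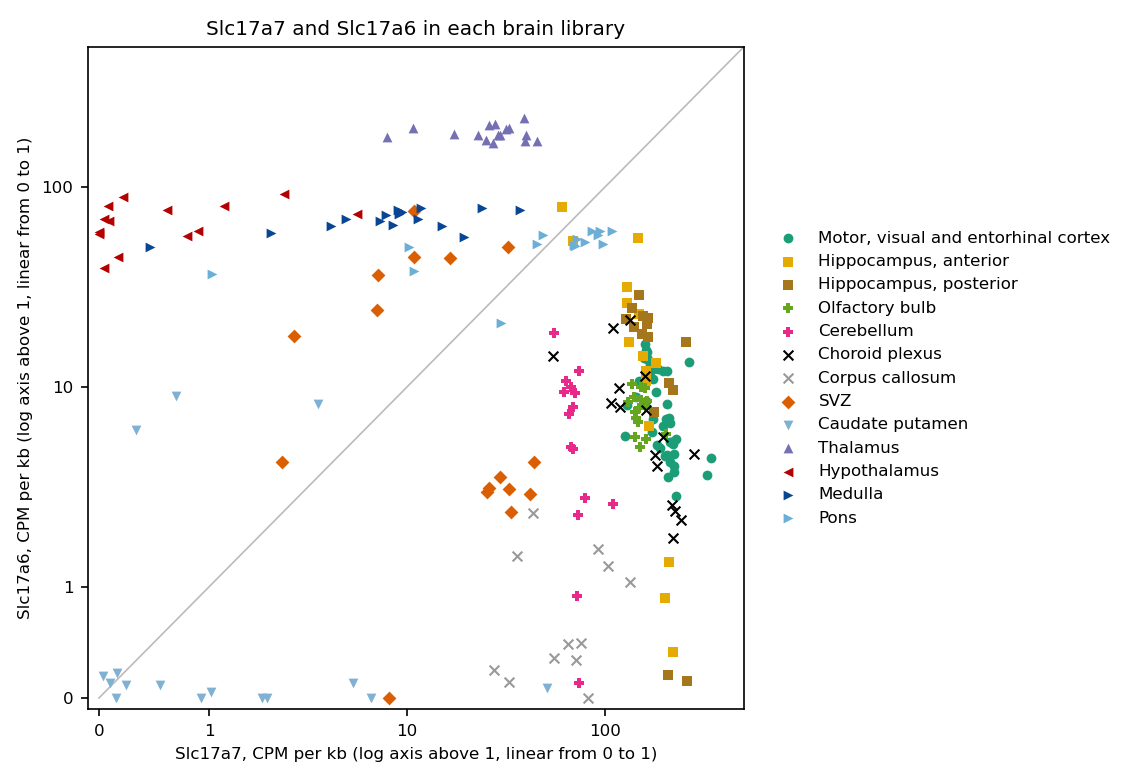
Slc17a7 against Slc17a6 in CPM per kb of the longest coding transcript (log axes above 1, linear from 0 to 1) for each brain library, coloured by region, with a grey line of equal levels. Cortical and hippocampal libraries lie on the Slc17a7 side, thalamus, hypothalamus and medulla on the Slc17a6 side, and libraries of SVZ and pons are spread over both sides of the line.

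The spread between mice was far larger in some regions than in others. In visual cortex the highest of the 4 AL values of Slc17a7 was 1.10 times the lowest, and in motor cortex 1.18 times. In pons the AL values of Slc17a7 were 211, 141, 3.02 and 230 CPM, a 76.1-fold range set by mouse 68. Slc17a6 in posterior hippocampus ran over a 139.9-fold range in the AL mice, from 0.853 CPM in mouse 68 (a library nearest to the anterior hippocampus) to 119 in mouse 66. In anterior hippocampus it was 328, 3.73, 96.0 and 231 CPM in the PBS mice and 54.2, 26.5, 1.72, 44.1 and 222 in the aDR mice. In the SVZ it was 14.6, 312, 12.1 and 100 CPM in the AL mice and 0, 182, 74.4 and 17.3 in the PBS mice.

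Within these regions, the genes moved across mice with marker lists of particular neurons. The lists name genes of each cell type, scored as the mean log2(CPM + 0.5) over the list, and were correlated over mice with log2(CPM + 0.5) of each transporter gene within a region, with 100000 permutations. Of 656 relations, 101 had an adjusted p under 0.05, of which 62 were positive and 39 negative. The same share was not taken over all genes, so this count does not set the transporters apart from other genes. The relations named here, all of them positive, were chosen after their values were seen. Both measures of a relation come from the same library, and mice of all treatments were pooled. In bulk tissue, fewer cells of a type and less RNA per cell cannot be told apart. The adjusted p of Spearman's rho was at most 0.0271 for the relations named. Within the diet mice alone their r lay between 0.605 and 0.993, and within the plasma mice, where at least 6 were measured, between 0.533 and 0.969.

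Slc17a7 followed the genes of cortical and hippocampal glutamatergic neurons in corpus callosum. Pearson's r was 0.970 (permutation p = 1e-05, the smallest these permutations can give, adjusted p = 0.000596, n = 12) and Spearman's rho 0.951 (permutation p = 3e-05). It was 0.959 without the 2 mice farthest from the median of the list, 0.993 within the diet experiment (n = 7). In choroid plexus the same relation had r = 0.891 (permutation p = 1e-05, adjusted p = 0.000596, n = 16) and rho = 0.888 (permutation p = 1e-05), with r = 0.872 without the 2 farthest mice. In SVZ it had r = 0.809 (permutation p = 0.00027, adjusted p = 0.00422, n = 16), rho = 0.803 (permutation p = 0.00031) and r = 0.760 without the 2 farthest mice. In anterior hippocampus r was 0.900 (permutation p = 3e-05, adjusted p = 0.00123, n = 16) and rho 0.897 (permutation p = 1e-05), with r = 0.645 without the 2 farthest mice.

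Slc17a6 followed the thalamic list (with Tcf7l2, Prkcd and Lef1) in choroid plexus, with r = 0.932 (permutation p = 1e-05, adjusted p = 0.000596, n = 16), rho = 0.944 (permutation p = 1e-05) and r = 0.900 without the 2 farthest mice. In SVZ r was 0.895 (permutation p = 1e-05, adjusted p = 0.000596, n = 16), rho 0.885 (permutation p = 3e-05) and r without the 2 farthest mice 0.880, and the relation was present in the diet mice (r = 0.952) and in the plasma mice (r = 0.846). In anterior hippocampus it was weaker, with r = 0.683 (permutation p = 0.00306, adjusted p = 0.0268, n = 16), rho = 0.715 (permutation p = 0.00259) and r = 0.575 without the 2 farthest mice.

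In the pons, Slc17a7 followed the list of cerebellar granule neurons, with r = 0.811 (permutation p = 1e-05, adjusted p = 0.000596, n = 15), rho = 0.921 (permutation p = 1e-05) and r = 0.881 without the 2 farthest mice. The granule list summed to between 126 and 480 CPM in pons, against 2305 to 3341 in cerebellum. Slc17a8 in the pons rose across mice with the serotonergic list (Tph2, Fev, Slc6a4 and Ddc), with r = 0.670 (permutation p = 0.00685, adjusted p = 0.0473, n = 15), rho = 0.900 (permutation p = 1e-05) and r = 0.690 without the 2 farthest mice. The medulla showed the same relation for Slc17a8, with r = 0.726 (permutation p = 0.00157, adjusted p = 0.0163, n = 16), rho = 0.80 (permutation p = 0.00033) and r = 0.825 without the 2 farthest mice.

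In caudate putamen, Slc17a8 followed the cholinergic list (Chat, Slc5a7, Slc18a3 and Ache), with r = 0.916 (permutation p = 3e-05, adjusted p = 0.00123, n = 16), rho = 0.741 (permutation p = 0.00175) and r = 0.757 without the 2 farthest mice. Within the diet mice r was 0.895 and within the plasma mice 0.957. Among the plasma mice, PBS mouse 76 lay far below the others on both measures, in the library nearest to corpus callosum. Its list score was 4.86, with 5.54 to 5.86 in the others, and its Slc17a8 5.17 CPM, with 13.5 to 17.3 in the others. The plasma r without that mouse alone was not taken, so the value of 0.957 is not read as a relation across the plasma mice. In corpus callosum Slc17a8 followed the striatal list, with r = 0.925 (permutation p = 4e-05, adjusted p = 0.00138, n = 12), rho = 0.881 (permutation p = 0.00026) and r = 0.866 without the 2 farthest mice.

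**Figure D3:**
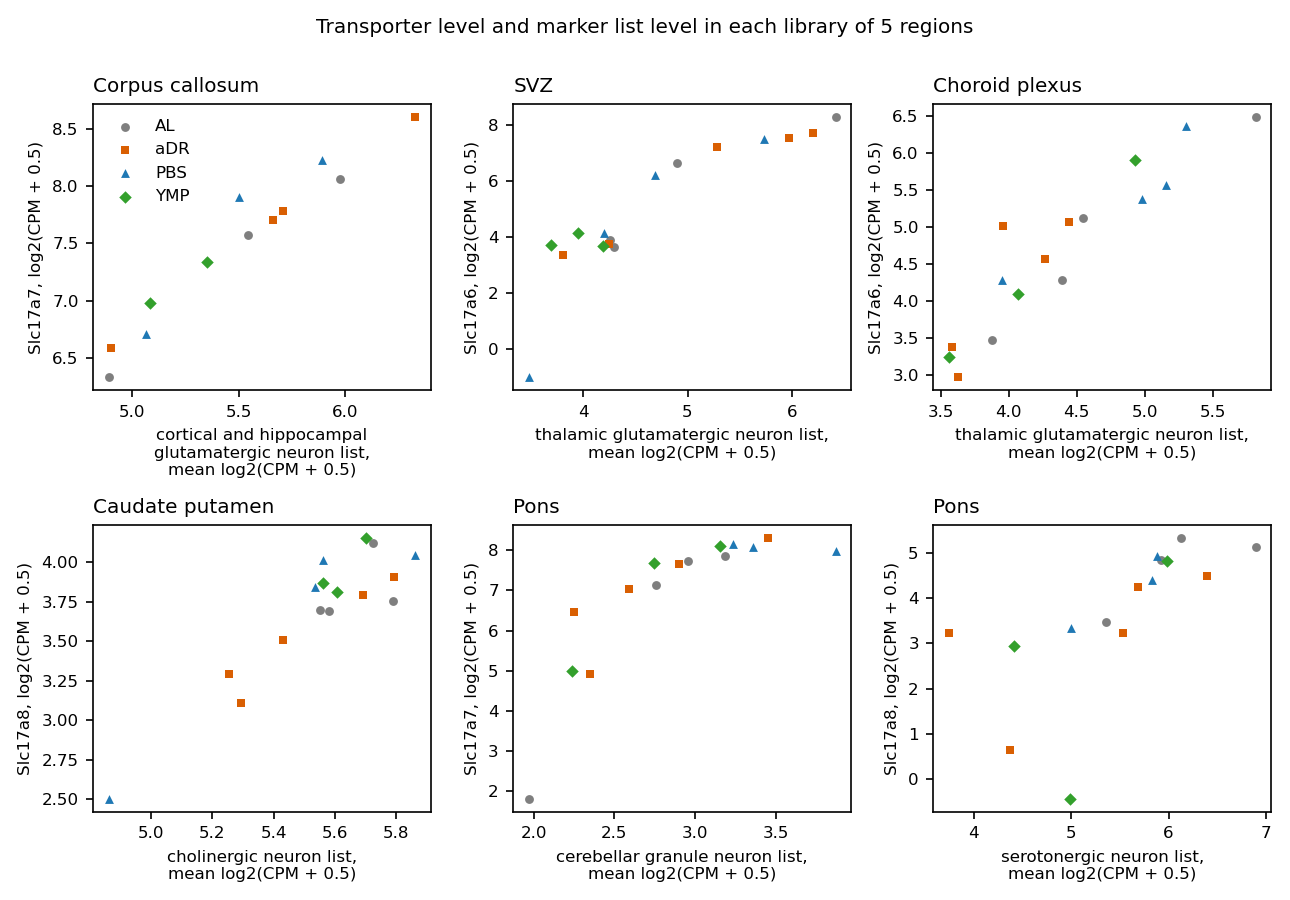
Each panel plots log2(CPM + 0.5) of 1 transporter gene against the score of 1 marker list, the mean log2(CPM + 0.5) over its genes, with 1 point per mouse coloured by treatment. The 6 relations run upward, with r from 0.670 in the pons for Slc17a8 and the serotonergic list to 0.970 in corpus callosum for Slc17a7 and the cortical and hippocampal list.

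Diet changed none of the 3 genes detectably in any brain region. Within regions, edgeR's quasi-likelihood test called 0 of the 40 gene and region combinations that passed the filter on low counts. An unadjusted p under 0.05 was reached by 2, and no adjusted p was below 0.202. Over all genes and regions 0.0525% of the diet tests were called and 6.24% had an unadjusted p under 0.05. DESeq2 gave no adjusted p for 1 of the 40 and called 0 of the others, and it called 0.262% of its diet tests over all genes. In all 45 combinations the aDR and AL values overlapped, and over all genes and regions tested 3.12% of combinations had groups that did not overlap, in either direction. The combinations not tested, because of low counts, were Slc17a6 in caudate putamen, Slc17a7 in hypothalamus, and Slc17a8 in cerebellum, entorhinal cortex and olfactory bulb.

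In the regions where a gene was high and steady, the intervals were narrow. In motor cortex Slc17a7 was 616, 612, 553, 640 and 618 CPM in the aDR mice against 585, 629, 535 and 594 in the AL mice, a log2 difference of 0.06 with a 95% interval from -0.06 to 0.18. In visual cortex the difference was 0.08, from -0.03 to 0.19. Slc17a6 in thalamus was 801, 817, 738, 701 and 757 CPM in the aDR mice against 749, 752, 812 and 848, a difference of -0.02 from -0.18 to 0.14. The intervals were wider where mice of one group differed more, from -1.88 to 2.10 for Slc17a7 in pons and from -2.31 to 2.53 for Slc17a6 in SVZ.

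The olfactory bulb held both diet combinations with an unadjusted p under 0.05. Slc17a6 was 32.9, 20.7, 22.8, 24.0 and 27.7 CPM in the aDR mice and 35.5, 28.7, 34.9 and 36.9 in the AL mice, where the aDR values were mostly lower but overlapped. The log2 difference was -0.41 (95% interval from -0.67 to -0.15, edgeR adjusted p = 0.202). Slc17a7 was 470, 436, 468, 588 and 427 CPM in the aDR mice and 443, 416, 380 and 407 in the AL mice, a difference of 0.20 (from 0.02 to 0.38, edgeR adjusted p = 0.313). The summed cortical and hippocampal list of 10 genes ran from 1061 to 2149 CPM in the aDR mice and from 968 to 1087 in the AL mice in this region, with every gene detected in both groups, and its part in the Slc17a7 values was not tested.

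Plasma of young mice gave 0 calls by edgeR's quasi-likelihood test among the 41 combinations tested, with an unadjusted p under 0.05 in 5 and no adjusted p below 0.199. Over all genes and regions 0.0127% of the plasma tests were called and 6.11% had an unadjusted p under 0.05. DESeq2, which gave no adjusted p for 1 of the 41, called 1 combination, Slc17a6 in hypothalamus, and 0.463% of its plasma tests over all genes (0.269% in hypothalamus). The groups overlapped in 42 of the 45 combinations. In the other 3, all YMP values lay above all PBS values: Slc17a7 in SVZ, Slc17a6 in cerebellum and Slc17a6 in hypothalamus. All 3 were among the 41 tested, and over all genes and regions tested 9.23% of combinations had groups that did not overlap, 4.82% with YMP above PBS, so the members' count is near the background.

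Slc17a6 in hypothalamus was 380, 303 and 317 CPM in the YMP mice and 163, 240 and 236 in the PBS mice. The log2 difference was 0.66 (95% interval from 0.30 to 1.03), with an adjusted p of 0.955 in edgeR and 0.0215 in DESeq2, where the difference was 0.66 as well. Slc17a7, nearly absent from this region, was 7.0, 16.2 and 1.80 CPM in the YMP mice and 0.126, 0 and 2.33 in the PBS mice (3.78, from 0.95 to 6.62, edgeR adjusted p = 0.998). The thalamic list of 8 genes summed to between 739 and 1234 CPM in these YMP libraries and between 425 and 693 in the PBS libraries, which did not overlap, with all 8 genes detected in both. The hypothalamic and brainstem list overlapped, at 59.9 to 124 and 30.6 to 174 CPM, with 1 of its 8 genes at 0 in each group. The part of the thalamic genes in the Slc17a6 difference was not tested.

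Slc17a7 in SVZ was 127, 95.6 and 73.4 CPM in the YMP mice and 23.7, 47.9, 7.87 and 6.77 in the PBS mice, a log2 difference of 2.05 (from 0.73 to 3.38, edgeR adjusted p = 0.199). It was 2.04 without YMP mouse 77 and PBS mouse 72, whose SVZ libraries were nearest to corpus callosum. The choroid plexus epithelium list of 8 genes summed to 2878 to 19809 CPM in the PBS libraries of this region and to 31.1 to 57.2 CPM in the YMP libraries, which did not overlap, with every gene detected in both groups. The cortical and hippocampal list overlapped, at 1686 to 2094 CPM in YMP and 1397 to 2193 in PBS. The part of these differences in the Slc17a7 values was not tested. Slc17a6 in the same libraries was 17.5, 12.8 and 12.3 CPM in YMP and 0, 182, 74.4 and 17.3 in PBS, which overlapped.

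Slc17a6 in cerebellum was 20.7, 41.4 and 32.9 CPM in the YMP mice and 20.2, 9.51 and 10.7 in the PBS mice, a log2 difference of 1.18 (from 0.48 to 1.88, edgeR adjusted p = 0.429), with the lowest YMP and the highest PBS value close together. The granule neuron list overlapped, at 2835 to 3067 CPM in YMP and 3038 to 3265 in PBS. Slc17a8 in thalamus was 2.04, 0.797 and 0.621 CPM in YMP and 0.822, 5.59, 7.23 and 6.89 in PBS, where PBS mouse 72 was as low as the YMP mice (-2.10, from -3.76 to -0.43, edgeR adjusted p = 1.0).

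**Figure D4:**
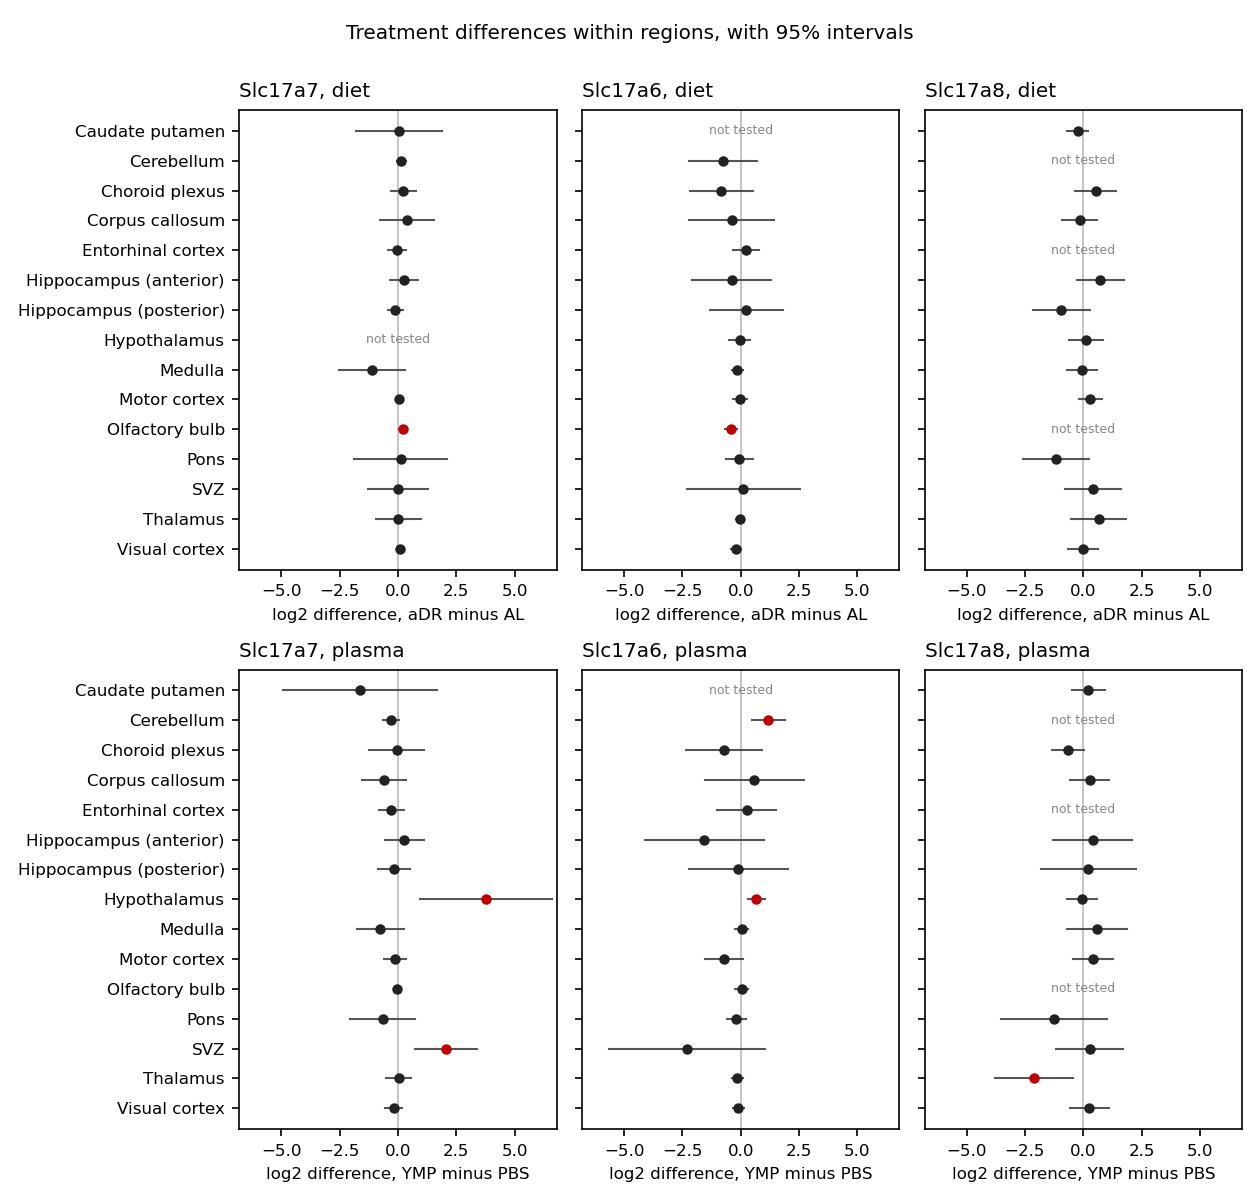
Log2 differences of each gene between treated and control mice by region (diet: aDR minus AL, plasma: YMP minus PBS), with points for the estimates and lines for the 95% intervals from the edgeR fits, and points in red where the unadjusted p is under 0.05. The 2 red diet points are both in olfactory bulb, the 5 red plasma points are in SVZ, cerebellum, hypothalamus (2) and thalamus, and combinations removed by the filter are marked as not tested.

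Taken over all regions with 1 value per mouse (limma), the diet difference was -0.01 on the log2 scale for Slc17a7 (SE 0.159, adjusted p = 0.992), -0.06 for Slc17a6 (SE 0.251, adjusted p = 0.937) and -0.14 for Slc17a8 (SE 0.150, adjusted p = 0.702). At this level 1.75% of all genes were called for diet. The plasma differences were 0.28 (SE 0.192, limma adjusted p = 0.718), -0.31 (SE 0.258, adjusted p = 0.776) and -0.07 (SE 0.111, adjusted p = 0.865), and 0% of all genes were called, with 1317 of 15768 at an unadjusted p under 0.05. An edgeR F test of the interaction of region with treatment asked if the effects varied by region. For diet the adjusted p was 1.0 for all 3 genes, where 0.0128% of genes were called. For plasma it was 0.592 for Slc17a7 (unadjusted 0.0396), 0.986 for Slc17a6 and 1.0 for Slc17a8, where 0.824% were called.

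The balance between the cortical-type and the thalamic-type transporter was taken for each mouse as the log2 ratio of Slc17a7 to Slc17a6 CPM (0.5 added to each), averaged over the regions with a library of every mouse. Over 12 regions of the diet experiment it ran from 1.13 to 1.97 in the 5 aDR mice and from 0.956 to 1.91 in the 4 AL mice, a difference of 0.09 (exact permutation test, two-sided, p = 0.778). Over 9 regions of the plasma experiment the YMP mice had 2.44, 2.66 and 2.21 and the PBS mice 2.22, 1.40, 0.872 and 1.85. The difference was 0.85 (exact permutation test, two-sided, p = 0.114), and with 3 mice against 4 this test cannot go below 0.0571.

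The rest of the glutamate pathway was read from lists of 69 genes in all: the receptors, the plasma membrane uptake and recycling genes, the other SLC17 genes, the vesicle release machinery and, for contrast, the genes of inhibitory transmission. Within regions, 0 of 928 gene and region combinations of these lists were called for diet and 0 of 930 for plasma by edgeR, with 68 at an unadjusted p under 0.05 in each. Over all genes and regions 0.0525% of diet and 0.0127% of plasma tests were called. An unadjusted p under 0.05 was reached by 6.24% and 6.11% of them. Over all regions limma called 0 list genes for either treatment, beside 1.75% of all genes for diet and 0% for plasma. Between motor cortex and thalamus, in contrast, many list genes differed, and the counts were read beside 3445 of 15324 genes called higher and 3778 called lower in motor cortex of the AL mice (median -0.03 over all genes).

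Among the receptors, the AMPA list, the fast ion channels of glutamate, had 2 of 4 genes called higher and 0 lower in motor cortex (median 0.76), with Gria3 at 1.49 (edgeR adjusted p = 4.73e-12) and Gria2 at 1.36 (adjusted p = 1.01e-09). The NMDA list, whose channels need depolarisation to open, was split, with 2 of 7 higher and 3 lower (median -0.26). Grin2a was higher by 1.39 (adjusted p = 3.97e-09), while Grin2c, Grin2d and Grin3a were lower, at -1.0, -1.46 and -1.53. The kainate and delta list also split, with 2 of 7 higher and 3 lower (median -0.27), and in the PBS mice with 3 higher and 0 lower. Of the metabotropic receptors, which signal through G proteins, 2 of the 7 tested were higher and 3 lower (median -0.24). Grm4 was lower in motor cortex (-2.48, edgeR adjusted p = 8.74e-10), and Grm3 was higher by 1.32 (adjusted p = 9.25e-12).

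The vesicle and release list had 8 of 17 genes called higher in motor cortex and 0 lower (median 0.43), and in the PBS mice 9 higher and 1 lower. The pan-neuronal list was also higher there, summing to 12469 ± 208 CPM in motor cortex and 9107 ± 1108 in thalamus (AL, SD, n = 4 each). Its part in the differences of the release genes was not tested. Cplx2, a complexin that clamps fusion-ready vesicles, was higher by 2.68 (edgeR adjusted p = 8.36e-11), and the plasma membrane SNARE Stx1a by 2.28 (adjusted p = 2.11e-10). Of the 14 uptake and recycling genes, 3 were higher and 2 lower (median 0.05). The astrocytic glutamate transporter Slc1a2 was higher by 0.73 (edgeR adjusted p = 5.22e-09), and Glud1, which converts glutamate to 2-oxoglutarate, was lower (-0.56, adjusted p = 7.76e-12). Of the other SLC17 genes, 1 of 6 passed the filter, the lysosomal sialic acid exporter Slc17a5, at 0.31 (edgeR adjusted p = 0.0096).

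By a fixed rule, the 4 genes whose pattern over the 15 AL regional means was most like that of each transporter were named, among 15323 genes, with Pearson's r on log2 CPM and no p. For Slc17a7 they were Bdh1 (0.902 in the AL mice, 0.678 over the PBS means), Alpk1 (0.879, 0.715), Adra1d (0.856, 0.836) and Cck (0.845, 0.649). For Slc17a6 they were Ahsa2 (0.939, 0.763), Acer3 (0.936, 0.874), Cib2 (0.898, 0.909) and Nrbp1 (0.898, 0.906). For Slc17a8 they were Slc22a23 (0.890, 0.817), Nipa1 (0.878, 0.761), Xxylt1 (0.870, 0.774) and Csf3r (0.865, 0.679). Every one of these values was lower over the PBS means, on which no gene was chosen, except those of Cib2 and Nrbp1. The transporters were unlike each other by the same measure, with r = 0.03 between Slc17a7 and Slc17a6, -0.43 between Slc17a7 and Slc17a8 and -0.10 between Slc17a6 and Slc17a8.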

How the data were processed

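The deposited values were whole-number read counts per gene, made by the authors in 1 table of 238 libraries, with 0 columns unused. RNA came from homogenised tissue, with Smart-Seq2 cDNA and unstranded Nextera XT libraries, per the labels. The submitters' processing notes name GRCm38, Trim Galore 0.3.7, STAR 2.5.3a and DESeq2. The counting program and annotation are not given in the sources used here, and counting choices for multiply mapped reads could change low values.

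The members and gene lists were chosen with earlier results of these data known. Groups came from the labels. Counts were tested with edgeR 4.0.16 (R 4.3.3) by the quasi-likelihood test, after filterByExpr (minimum count 10, minimum total 15) and TMM scaling, with Benjamini-Hochberg adjustment over all genes and calls at 0.05. For effects over regions, limma 3.58.1 compared 1 value per mouse, its term in a linear model of log2 CPM (prior count 2) with region and mouse. Levels in CPM use plain library totals. DESeq2 1.42.0 was an alternative, with other scaling, no filter, a mouse block and leaving out each mouse. The tests were checked on simulated data. Genes were named by rule (each transporter, and the 4 genes most like it in pattern), and other names were chosen after values were seen. Replicate libraries were compared for duplicates by chi-square over genes in 357 pairs (at least 1.29 per degree of freedom), and all were kept. Intervals cover the spread between these mice.

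Per the labels, libraries with the same mouse number come from 1 animal. Deviations of libraries from their group means had a median correlation of 0.037 within a mouse and -0.015 across mice in the AL group, and of 0.146 and -0.044 in the PBS group.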

Additional observations from a re-analysis of the deposited data

Results flagged for a closer look

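Of 111 groups of 4 or more mice, 13 had a highest or lowest value far from the rest by Dixon's test at the 95% level. For normally distributed values about 1 in 20 groups (5.55) is flagged by chance. Groups near 0, such as Slc17a8 in cerebellum, need not meet that condition. The share flagged over all genes was not taken, so the 13 are not read as an excess. Groups of 3 were not tested. Several of these were libraries of PBS mouse 72. In caudate putamen Slc17a7 was 147 CPM in that mouse and 0.101 to 10.3 in the other PBS mice. In entorhinal cortex it had 52.5 CPM of Slc17a6, with 14.6 to 15.6 in the others, and 2.75 CPM of Slc17a8, with 0 to 0.181 in the others. In motor cortex it had 56.2 CPM of Slc17a6, with 18.2 to 22.6 in the others. In SVZ it had 7.58 CPM of Slc17a8, with 1.27 to 1.81 in the others. The entorhinal, motor and SVZ libraries of this mouse were nearest to another region (visual cortex, visual cortex and corpus callosum).

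In the other PBS mouse concerned, 76, Slc17a6 in caudate putamen was 33.8 CPM, with 0.382 to 0.807 in the others, and that library was nearest to corpus callosum. In aDR mouse 67, Slc17a6 was 222 CPM in anterior hippocampus, with 1.72 to 54.2 in the others, and 86.5 CPM in pons, with 208 to 249 in the others. In olfactory bulb Slc17a7 was 588 CPM in aDR mouse 65, with 427 to 470 in the others, in a library of under 2 M counts. In visual cortex Slc17a6 was 39.1 CPM in aDR mouse 64, with 50.6 to 52.0 in the others, also in a library of under 2 M counts. Among the AL mice, Slc17a7 in anterior hippocampus was 468 CPM in mouse 63, with 374 to 382 in the others. Mouse 68 had 16.9 CPM of Slc17a8 in caudate putamen, with 12.4 to 13.0 in the others, and 1.03 CPM in cerebellum, with 0 in the others.

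Liver, which no brain comparison uses, held Slc17a8 at a mean of 14.6 CPM over the 9 libraries.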

How the results depend on the processing

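Of 392 values recomputed under an alternative for 42 results, 367 were labelled as the same. For tested differences this meant the same direction and the same side of the threshold. For counts it meant staying within a set ratio of the main count, and for shares a shift within the SD. Counts labelled the same could therefore still move. The PBS region pairs called for Slc17a8 were 51 in the main fit and ran from 36 to 65 leaving out 1 mouse at a time. Within regions DESeq2 gave 1 plasma call in place of 0 (Slc17a6 in hypothalamus, 0.66, adjusted p = 0.0215), and over all genes 949 plasma and 529 diet calls against 26 and 108 by edgeR. The diet difference of Slc17a7 over regions, near 0, reversed with a prior count of 0.5 (0.0019), with voom and a replicate block for the mouse (0.115), with voom and no block (0.092) and without the libraries nearest to another region (0.0082), and its plasma difference reversed with voom with the block (-0.18) and without it (-0.059). The cause was not tested. Leaving out 1 mouse at a time, the diet difference ran from -0.18 to 0.13 for Slc17a7 and from -0.23 to 0.10 for Slc17a6, the plasma difference of Slc17a8 from -0.15 to 0.014 (without YMP mouse 77), the diet balance from -0.066 to 0.25, and the PBS region pairs of Slc17a6 from 20 to 61. Region fits with the mouse as a replicate block called 70, 67 and 70 pairs for Slc17a7, Slc17a6 and Slc17a8 in the AL mice. In the PBS mice they called 54, 52 and 52. The calls between motor cortex and thalamus were unchanged, and the calls of the other single pairs were not compared. Per pan-neuronal counts Slc17a6 differed by -5.60 between motor cortex and thalamus in the AL mice, and with exon union lengths the share of Slc17a7 in motor cortex was 95.9%. Depth limits Slc17a8, whose counts are at or near 0 in cerebellum, entorhinal cortex and olfactory bulb.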

Other observations

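Slc17a8 was counted in liver at levels seen in few brain regions. The 4 AL mice had 8.99, 8.19, 4.99 and 8.41 CPM and the 5 DR mice 15.8, 33.1, 27.6, 21.1 and 3.07, where 4 of 5 DR mice lay above every AL mouse and mouse 67 lay below all of them. The log2 difference was 1.40 (95% interval from 0.34 to 2.47, edgeR adjusted p = 0.358), where 26 of 11815 genes tested in liver were called. Leaving out 1 mouse at a time gave differences from 1.16 to 1.68. Of these 9 fits, 1 was called, the one without mouse 67 (1.68, edgeR adjusted p = 0.0349). The pan-neuronal list of 10 genes summed to between 10.4 and 21.8 CPM in liver, against 11482 to 12866 in motor cortex. Slc17a7 was at 0 in 7 of the 9 liver libraries and Slc17a6 in 8.

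The genes of inhibitory transmission, the counterpart of the glutamate transporters, had another map in the AL mice. Slc32a1, the vesicular transporter of GABA and glycine, was highest in olfactory bulb (40.7 ± 5.51 CPM, SD, n = 4) and caudate putamen (32.3 ± 3.70, n = 4), and lowest in thalamus (2.05 ± 1.98, n = 4), where Slc17a6 was at its peak. Gad1, the main GABA-synthesising enzyme, measured 2697 ± 142 CPM in olfactory bulb, 910 ± 79.6 in caudate putamen and 79.1 ± 75.6 in thalamus (n = 4 each). Between motor cortex and thalamus, 3 of the 6 list genes were higher in motor cortex and 1 was lower (median 0.76), with Gad1 at 2.72 (edgeR adjusted p = 7.06e-09), Slc32a1 at 1.97 (adjusted p = 6.38e-06) and Gad2 at 1.51 (adjusted p = 7.21e-05). Levels of different genes are not compared here, since these values are not per length.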
